A study of Homo sapiens with 8 samples.

Results

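The genes described here handle triglyceride and the lipid droplets that store it. They are HILPDA, PLIN2, VLDLR, LPIN1, AGPAT2, DGAT1, DGAT2 and PNPLA2, which were chosen by name, and all 8 have 1 row in each count table among 23193 genes. Transcription was measured in HCT116 cells, an established human colorectal carcinoma line, by PRO-seq, in which engaged RNA polymerases extend their transcripts in isolated nuclei and only that nascent RNA is sequenced. The libraries came from wild-type (WT) cells and from a derived HIF1A-/- line, made by targeted recombination at HIF1A, each held in normoxia or exposed to hypoxia (1% O2) for 90 min. Every culture received DMSO, the solvent of an inhibitor used elsewhere in the study. Each of the 4 combinations of genotype and oxygen had 2 independent replicates, giving 8 libraries. The HIF1A-/- cells are a separate line, so differences between lines that do not come from HIF1A cannot be told apart from the effect of its loss.

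Fatty acids enter a cell from lipoproteins, through receptors such as the VLDL receptor, or as free acids, and are joined to glycerol in steps carried out by acyltransferases, lipins and, last, the diacylglycerol acyltransferases. The resulting triglyceride is kept in droplets coated by perilipins and is broken down again by adipose triglyceride lipase, which HILPDA inhibits. Hypoxic cells are known to accumulate lipid droplets, and HILPDA (hypoxia inducible lipid droplet associated) is a known target of the hypoxia-inducible factors, of which HIF1A encodes a subunit.

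Reads were counted in a TSS region, from 50 bp before to 500 bp after the transcription start site, and in a gene body that begins about 1 kb after it, so gene body reads report elongating polymerase. Totals per library were 18125234 to 23622392 reads in gene bodies and 2783581 to 5966348 in TSS regions. The TSS share of counted reads was lowest in both replicate 1 libraries of HIF1A-/- cells, at 11.2% in normoxia and 12.9% in hypoxia, against 16.9% to 20.2% in the other 6. HIF1A itself gave 138 and 150 gene body counts per 1000000 reads (CPM) in normoxic and 130 and 161 in hypoxic WT cells, against 165 and 137 in normoxic and 175 and 158 in hypoxic HIF1A-/- cells. HIF1A is still transcribed in the mutant line, and since the line carries a short deletion within HIF1A that stops translation, counts summed over the gene body do not test the genotype. The 8 epithelial markers examined, among them EPCAM, KRT8 and CDX2, summed to 891 to 1264 CPM in each library, whereas 2 of 6 adipocyte markers passed the filter (LIPE and PLIN1) and the 6 together summed to 21.8 to 36.0 CPM. Fibroblast and muscle markers, of which 4 of 6 passed, summed to 33.4 to 76.4 CPM. Endothelial markers, with 3 of 4 passing, summed to 8.66 to 30.3 CPM, and blood and immune markers, with 2 of 6, to 9.57 to 16.7 CPM.

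Of the 8 members 7 were transcribed in HCT116 cells at levels that could be tested, and VLDLR was not. HILPDA was the only member called in a gene body comparison by edgeR without a replicate block, with less transcription in HIF1A-/- than in WT cells under hypoxia (log2 fold change -2.14). PLIN2 differed in the same direction by a smaller amount (-0.74) and was called only with the block. For the members that build triglyceride and the lipase that degrades it, gene body fold changes in the 4 comparisons between groups ranged from -0.65 to 0.67 on the log2 scale. With the block LPIN1 was called lower in HIF1A-/- cells at both oxygen levels and AGPAT2 higher in hypoxia. In hypoxia that fit called 15.1% of all gene bodies lower and 13.1% higher, and in normoxia 6.39% and 3.93%. A gene was called where its adjusted p, over all 16686 gene bodies or 15212 TSS regions tested, was under 0.1. Replicates with the same number deviated together across genes, so results of a fit with the replicate number as a block are given where they change a call.

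**Figure D1:**
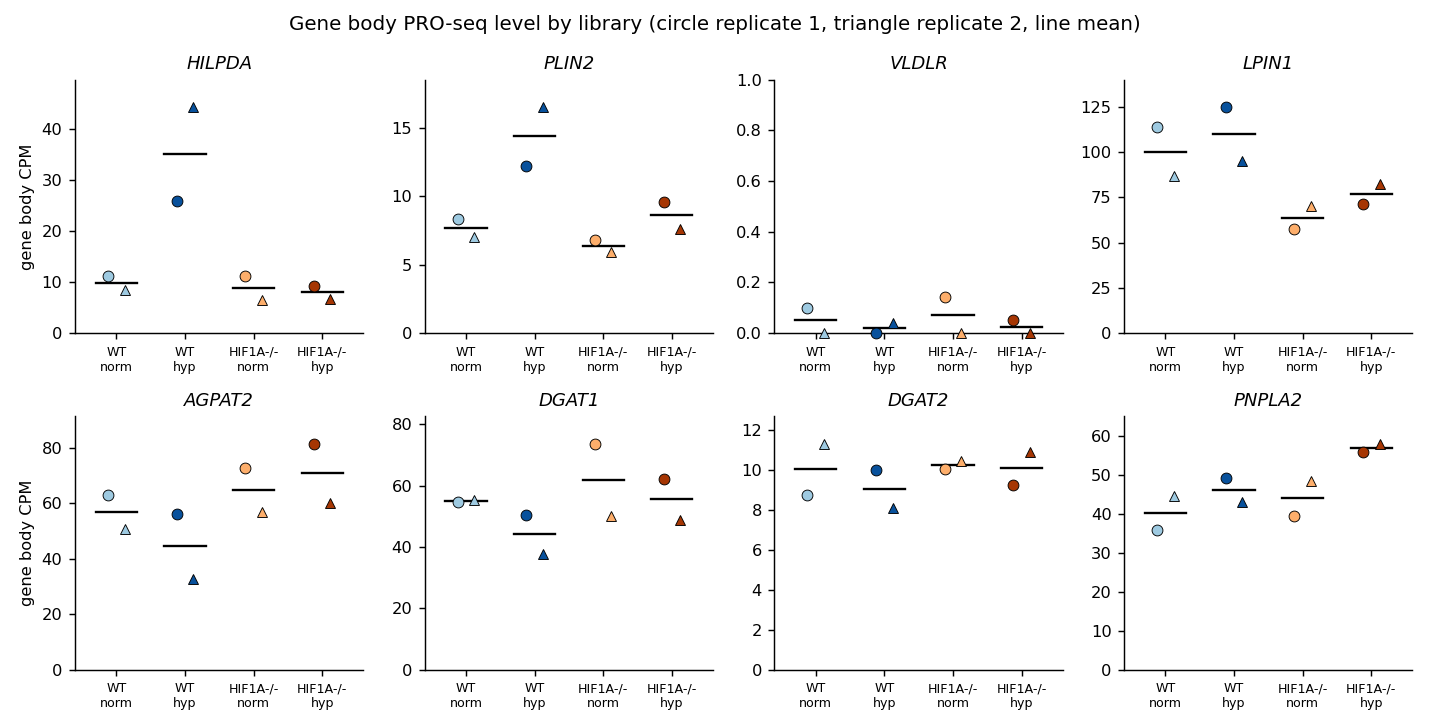
Gene body CPM of each member in the 8 libraries, with normoxia and hypoxia shortened to norm and hyp. Both WT hypoxia libraries stand above the other 6 for HILPDA (25.8 and 44.2 CPM) and for PLIN2 (12.3 and 16.6 CPM), and VLDLR is near 0 throughout on an axis that ends at 1 CPM.

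HILPDA encodes a small droplet protein that inhibits the lipase PNPLA2. Its counted gene body is short, at 1589 bp (chr7:128096884-128098472, + strand, GRCh37), and 76.7% of it is annotated as exon. In WT cells HILPDA gave 11.2 and 8.50 CPM in normoxia and 25.8 and 44.2 CPM in hypoxia, from 154 to 1066 reads a library. In HIF1A-/- cells it gave 11.2 and 6.44 CPM in normoxia and 9.27 and 6.62 CPM in hypoxia. Both hypoxic WT libraries lay above all the others, and the remaining 6 overlapped one another whatever their genotype and oxygen level.

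Under hypoxia HILPDA was lower in HIF1A-/- than in WT cells, at 0.227 of the WT mean (log2 fold change -2.14, SE 0.37, adjusted p = 0.0275). It was the only member of the 7 tested that was called in this comparison, in which 2.79% of all gene bodies were called lower and 1.47% higher. The 2 replicate pairs gave log2 ratios of -1.48 and -2.74. Without replicate 2 of WT hypoxia the log2 fold change was -1.70 (adjusted p = 0.198) and without replicate 2 of HIF1A-/- hypoxia it was -1.94 (adjusted p = 0.130), so the call was lost in these cases, and it stood when any of the other 6 libraries was left out. In normoxia the genotypes differed by -0.16 (SE 0.36, adjusted p = 0.991). In these bulk libraries, fewer cells transcribing a gene and fewer polymerases on it per cell cannot be told apart.

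Between its hypoxic and normoxic means in WT cells HILPDA differed 3.56-fold (log2 fold change 1.83, SE 0.36), with log2 ratios of 1.21 and 2.38 in the 2 pairs. It was not called without the block (edgeR adjusted p = 0.175). With the block HILPDA was called higher in hypoxia (log2 fold change 1.86, adjusted p = 0.0309), as it was by DESeq2 without a block (adjusted p = 0.000174). It was also called by edgeR without the block when replicate 1 or replicate 2 of HIF1A-/- normoxia was left out (adjusted p = 0.0768 and 0.0746). In HIF1A-/- cells the difference was -0.15 (SE 0.36, adjusted p = 1.00), with pairs at -0.27 and 0.04. The difference between the responses of the 2 genotypes was 1.98 (SE 0.51), and its call depended on the tool: the adjusted p was 1.00 in edgeR without the block, 0.336 with it and 0.0493 in DESeq2. The comparison between genotypes under hypoxia and the response of WT cells share the 2 hypoxic WT libraries and are not independent.

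Beside these HILPDA results, edgeR called 0 of the 7 members in the WT response (2, HILPDA and PLIN2, had an unadjusted p under 0.05, and DESeq2 called 1). Over all gene bodies 0.431% were called higher and 0% lower without the block, 3.73% and 1.77% with it, and 1.04% higher by DESeq2. For HIF1A-/- cells edgeR called 0 members, 0 had an unadjusted p under 0.05 and DESeq2 called 0, with 0% of all gene bodies called by edgeR in either direction. For the difference between the genotypes' responses edgeR called 0 members with and without the block (1, HILPDA, had an unadjusted p under 0.05, and DESeq2 called it). There 0.0539% of gene bodies were called higher and 0% lower without the block, 0.384% higher with it and 0.408% higher by DESeq2.

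**Figure D2:**
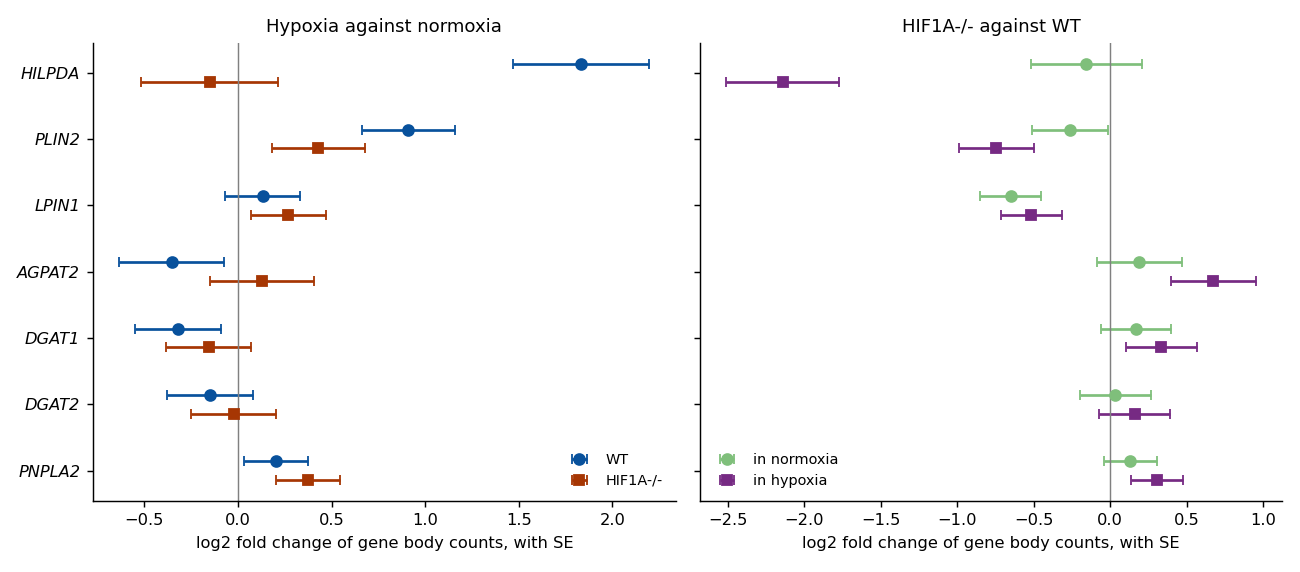
Log2 fold changes of gene body counts with their standard errors for the 7 members tested, for hypoxia against normoxia (left: circles WT, squares HIF1A-/-) and for HIF1A-/- against WT cells (right: circles normoxia, squares hypoxia), from the edgeR fit without a block. HILPDA stands apart at 1.83 in WT hypoxia and -2.14 between genotypes in hypoxia, while its other 2 values lie near 0.

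In the comparisons that involve hypoxic WT cells, HILPDA differed less at its TSS than in its gene body. The TSS gave 155 and 146 CPM in normoxic and 200 and 259 in hypoxic WT cells, against 119 and 144 in normoxic and 144 and 156 in hypoxic HIF1A-/- cells. Hypoxic WT libraries were again the 2 highest, with a narrower gap to the rest. The TSS log2 fold change with hypoxia was 0.61 in WT cells (SE 0.16, adjusted p = 0.922 without and 0.0311 with the block), 0.19 in HIF1A-/- cells (SE 0.17, adjusted p = 1.00) and the responses differed by 0.43 (SE 0.24, adjusted p = 1.00). Between genotypes the TSS differed by -0.19 in normoxia (SE 0.17, adjusted p = 0.787) and by -0.62 in hypoxia (SE 0.17, adjusted p = 0.147 without and 0.00451 with the block). This TSS difference was also called without the block when replicate 1 or replicate 2 of HIF1A-/- normoxia was left out (adjusted p = 0.0583 and 0.0588). In all TSS regions, the WT response was called higher in 0.046% without and 0.789% with the block, and the hypoxic genotype comparison was called lower in 0.664% and 6.97%.

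The pausing index (PI) sets reads per bp at the TSS against reads per bp in the gene body, each relative to the total of its own table, so it ranks genes and libraries but is not a ratio of polymerase numbers. HILPDA had a PI of 40.0 and 49.5 in WT normoxia and 22.4 and 16.9 in WT hypoxia. The HIF1A-/- libraries had 30.6 and 64.4 when normoxic and 44.7 and 68.0 when hypoxic, with replicate 1, whose TSS share was low, below replicate 2 both times. The WT hypoxia libraries were the 2 lowest of the 8, while the median over all genes stayed between 44.1 and 47.6 in every library. The log2 fold change of its PI with hypoxia was -1.19 in WT cells (SE 0.30, adjusted p = 0.349 without the block). With the block the decrease was called (log2 fold change -1.21, adjusted p = 0.0407), as it was without the block when either HIF1A-/- normoxia library was left out (adjusted p = 0.0316 and 0.0332). In HIF1A-/- cells the PI differed by 0.32 (SE 0.32, adjusted p = 1.00), and the difference between the responses was -1.51 (SE 0.44, adjusted p = 1.00 without and 0.305 with the block). Without replicate 2 of HIF1A-/- normoxia that difference was -2.03 and called (adjusted p = 0.0793), whereas without replicate 1 of the same group it was -0.99 (adjusted p = 0.951). For the PI of the 7 members edgeR without the block called 0 in the WT response and 0 in the difference between responses, with 1, HILPDA, at an unadjusted p under 0.05 in each, and DESeq2 was not run on the PI. Of the 14494 genes with a PI, 0.186% without and 0.421% with the block had a called decrease in WT hypoxia, and 0.0207% without the block a called negative difference between responses.

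PLIN2 encodes perilipin 2, the coat protein of droplets in cells other than adipocytes. It gave 8.33 and 7.01 gene body CPM in WT normoxia and 12.3 and 16.6 in WT hypoxia, in a gene body of 10.8 kb (chr9:19115758-19126603, - strand, GRCh37). In HIF1A-/- cells it gave 6.84 and 5.94 CPM in normoxia and 9.57 and 7.65 in hypoxia. Hypoxic libraries were above normoxic ones within each genotype, and the 2 WT hypoxia libraries were the highest of all. The gene body log2 fold change with hypoxia was 0.91 in WT cells (SE 0.25, adjusted p = 0.579 without and 0.0738 with the block) and 0.43 in HIF1A-/- cells (SE 0.25, adjusted p = 1.00). The 2 responses differed by 0.48 (SE 0.35, adjusted p = 1.00), and pairs gave log2 ratios of 0.56 and 1.24 in WT and 0.48 and 0.37 in HIF1A-/- cells. Between HIF1A-/- and WT cells the log2 fold change was -0.26 in normoxia (SE 0.25, adjusted p = 0.935) and -0.74 in hypoxia (SE 0.25, adjusted p = 0.198 without and 0.0405 with the block).

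At the TSS of PLIN2 no difference between groups was called without the block. WT cells gave 44.4 and 42.0 CPM in normoxia and 57.4 and 56.5 in hypoxia. HIF1A-/- cells gave 27.1 and 30.9 in normoxia and 35.5 and 35.9 in hypoxia, with no overlap between any groups. With 2 libraries a group a lack of overlap, here and in the gene body of any member, is not a test. How many TSS regions or gene bodies show it was not counted. With hypoxia the TSS log2 fold change was 0.40 in WT (SE 0.21, adjusted p = 0.922) and 0.29 in HIF1A-/- cells (SE 0.22, adjusted p = 1.00), with a difference between responses of 0.10 (SE 0.30, adjusted p = 1.00). HIF1A-/- against WT gave -0.57 in normoxia (SE 0.21, adjusted p = 0.502) and -0.67 in hypoxia (SE 0.21, adjusted p = 0.206 without and 0.0274 with the block). The PI was 105 and 118 in normoxic and 92.1 and 67.2 in hypoxic WT cells, against 78.1 and 102 in normoxic and 73.0 and 92.4 in hypoxic HIF1A-/- cells. It differed by -0.50 in WT (SE 0.29, adjusted p = 0.872) and -0.13 in HIF1A-/- cells (SE 0.31, adjusted p = 1.00), with a difference of -0.38 (SE 0.43, adjusted p = 1.00).

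**Figure D3:**
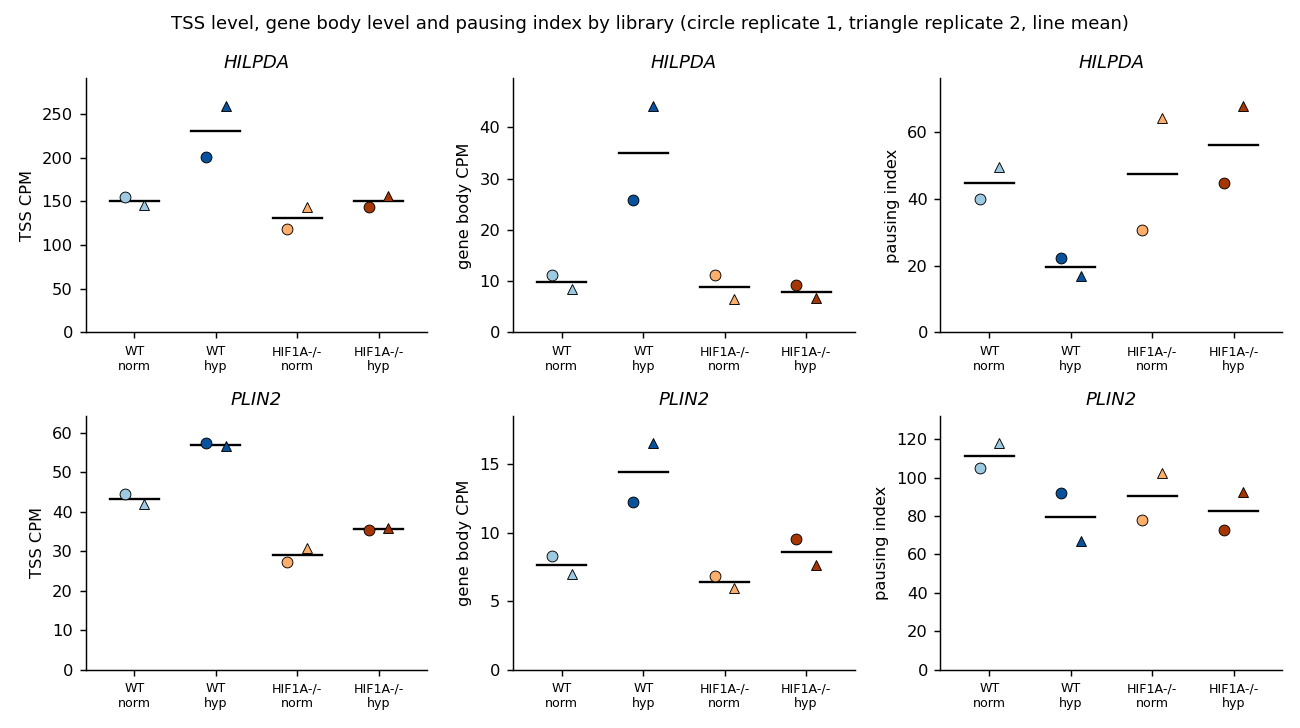
TSS CPM, gene body CPM and pausing index of HILPDA (top) and PLIN2 (bottom) in each library, with normoxia and hypoxia shortened to norm and hyp. The 2 WT hypoxia libraries are highest in both regions for both genes, and they have the 2 lowest pausing indices for HILPDA.

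The promoters of 5 of the 8 members are in the RefSeq promoter table used here (GRCh38.p14, 250 bases before to 50 after the start): PLIN2, VLDLR, LPIN1, AGPAT2 and PNPLA2. HIF binds the core letters ACGTG or GCGTG within a longer element, and CACGTG is an E-box that contains ACGTG on both strands. On either strand, ACGTG occurs in 21.4% of the 35116 promoters in the table, GCGTG in 36.5%, either of them in 48.4% and CACGTG in 7.26%. PLIN2 has 3 ACGTG, 2 of which are the opposite strands of its 1 CACGTG, and 2 GCGTG, the second of which runs across the start. VLDLR has 5 GCGTG, AGPAT2 has 2, and LPIN1 has 1 in each of 2 of its 3 entries. PNPLA2 has neither core. The 250 bases before the start are shown for PLIN2, the member with both cores, for VLDLR, which has 5 matches and no TSS reads, and for PNPLA2, which has no match. Each runs 5′ to 3′ on the gene's strand, and capitals mark ACGTG and GCGTG on either strand. In PLIN2 (chr9:19127493-19127742, - strand) they begin 120, 85 and 69 bases before the promoter table's start, the last of these being the CACGTG. That start was not matched to the one used for counting. The counted TSS region of PLIN2, which opens 50 bp before its own start, is chr9:19127104-19127654 in GRCh37. Some of these letters may therefore lie at or after the counted start. VLDLR lies at chr9:2621537-2621786 (+ strand) and PNPLA2 at chr11:818664-818913 (+ strand).
PLIN2: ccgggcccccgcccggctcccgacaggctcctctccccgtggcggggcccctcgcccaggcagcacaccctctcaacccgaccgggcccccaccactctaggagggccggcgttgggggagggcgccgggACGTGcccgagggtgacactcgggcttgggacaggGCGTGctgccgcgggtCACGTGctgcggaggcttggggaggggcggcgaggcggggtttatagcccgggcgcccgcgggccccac
VLDLR: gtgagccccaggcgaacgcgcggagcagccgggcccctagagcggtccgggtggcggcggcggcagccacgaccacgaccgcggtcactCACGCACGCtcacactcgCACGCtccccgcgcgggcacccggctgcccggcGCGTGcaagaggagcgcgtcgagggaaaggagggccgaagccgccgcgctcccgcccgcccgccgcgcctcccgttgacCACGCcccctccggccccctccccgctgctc
PNPLA2: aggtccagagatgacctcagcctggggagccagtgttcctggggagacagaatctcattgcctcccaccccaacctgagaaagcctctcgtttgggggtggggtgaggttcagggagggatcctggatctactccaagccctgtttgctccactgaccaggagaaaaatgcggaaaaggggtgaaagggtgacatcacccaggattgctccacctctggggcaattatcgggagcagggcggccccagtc
A match is a run of letters and was not tested as a binding site.

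VLDLR encodes a receptor that takes up triglyceride-rich lipoproteins and is known as a hypoxia-induced gene in other cells. Its TSS region held 0 reads in all 8 libraries. Its 33.3 kb gene body (chr9:2622774-2656103, + strand, GRCh37) held 7 reads in all, with 2 and 0 in normoxic and 0 and 1 in hypoxic WT cells, against 3 and 0 in normoxic and 1 and 0 in hypoxic HIF1A-/- cells. VLDLR therefore did not pass the filter on low counts. It was tested only in the fit with no such filter, which called it in none of the 5 gene body comparisons, and with so few reads no fold is given. A count of 0 allows up to 3 reads, which is 0.124 to 0.166 CPM in gene bodies and 0.514 to 1.09 CPM in TSS regions of these libraries, and these limits cover counting error only. The antisense gene VLDLR-AS1, whose TSS region overlaps that of VLDLR by 401 bp on the other strand, gave 3.53 to 8.96 CPM in its own gene body. The related receptor LRP8 was transcribed in every library, at 224 to 399 gene body CPM. It was not called in any gene body comparison, with a log2 fold change of -0.17 in WT hypoxia (SE 0.28, adjusted p = 0.913).

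LPIN1 encodes lipin 1, a phosphatidate phosphatase that makes diacylglycerol. It gave 114 and 86.7 gene body CPM in normoxic and 125 and 94.8 in hypoxic WT cells, against 57.2 and 70.5 in normoxic and 71.6 and 82.2 in hypoxic HIF1A-/- cells. All 4 HIF1A-/- libraries lay below all 4 WT libraries, and hypoxic libraries overlapped normoxic ones in WT but lay above them in HIF1A-/- cells. Such separations are not tests, and the share of all gene bodies that show them was not counted. HIF1A-/- against WT cells gave a log2 fold change of -0.65 in normoxia (SE 0.20, adjusted p = 0.293 without and 0.0769 with the block). In hypoxia it was -0.52 (SE 0.20, adjusted p = 0.272 without and 0.0822 with the block). The response to hypoxia was 0.13 in WT (SE 0.20, adjusted p = 0.906) and 0.27 in HIF1A-/- cells (SE 0.20, adjusted p = 1.00). At the TSS LPIN1 ranged from 24.0 to 34.6 CPM in WT and from 16.6 to 24.3 in HIF1A-/- cells.

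In the normoxic genotype comparison edgeR called 0 members without the block (1, LPIN1, had an unadjusted p under 0.05, and DESeq2 called 0) and 1 with it. In that comparison 1.05% of gene bodies were called lower and 0.725% higher without the block, and 6.39% and 3.93% with it. In the hypoxic genotype comparison the block raised the members called from 1 to 4, with HILPDA, PLIN2 and LPIN1 lower and AGPAT2 higher in HIF1A-/- cells. It also raised the share of all gene bodies called, to 15.1% lower and 13.1% higher.

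AGPAT2 acylates lysophosphatidate to phosphatidate, the step before the lipins. Its gene body CPM were 62.8 and 50.7 in normoxic and 56.1 and 32.8 in hypoxic WT cells, against 72.6 and 56.8 in normoxic and 81.5 and 60.0 in hypoxic HIF1A-/- cells. Replicate 1 was above replicate 2 in all 4 groups, and only in hypoxia did the genotypes not overlap. That separation is not a test, and how many gene bodies show it was not counted. There the log2 fold change of HIF1A-/- against WT cells was 0.67 (SE 0.28, adjusted p = 0.299 without the block), and AGPAT2 was called higher with the block (0.70, adjusted p = 0.00767). In normoxia the genotypes differed by 0.19 (SE 0.28, adjusted p = 0.978). With hypoxia AGPAT2 differed by -0.35 in WT (SE 0.28, adjusted p = 0.897) and 0.13 in HIF1A-/- cells (SE 0.28, adjusted p = 1.00). Its TSS gave 108 to 143 CPM in WT and 88.3 to 127 CPM in HIF1A-/- cells, and the hypoxic libraries of the genotypes overlapped there.

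DGAT1 and DGAT2 are unrelated enzymes that add the last fatty acid to make triglyceride. DGAT1 gave 54.8 and 55.5 gene body CPM in normoxic and 50.5 and 37.8 in hypoxic WT cells, against 73.8 and 50.2 in normoxic and 62.3 and 48.9 in hypoxic HIF1A-/- cells. Its 2 hypoxic WT libraries lay below both normoxic ones, which is not a test, and the genotypes overlapped at each oxygen level. The WT response was -0.32 (SE 0.23, adjusted p = 0.897) and that of HIF1A-/- cells -0.16 (SE 0.23, adjusted p = 1.00). HIF1A-/- against WT cells gave 0.17 in normoxia (SE 0.23, adjusted p = 0.968) and 0.33 in hypoxia (SE 0.23, adjusted p = 0.534). The DGAT1 gene body overlaps that of HSF1 by 145 bp on the other strand, and the libraries were strand-specific.

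At its TSS, DGAT1 gave 239 and 103 CPM in normoxic and 117 and 83.3 in hypoxic WT cells, against 119 and 117 in normoxic and 96.5 and 82.3 in hypoxic HIF1A-/- cells. Replicate 1 of WT normoxia stood far above the other 7 libraries. The WT difference of -0.78 (SE 0.30, adjusted p = 0.922) was called with the block (-0.73, adjusted p = 0.0691), in which 0.217% of TSS regions were called lower. Without replicate 1 of WT normoxia it was -0.042 (adjusted p = 1.00), so it rested on that library. In this TSS comparison edgeR called 0 members without the block, 2 (HILPDA and DGAT1) had an unadjusted p under 0.05, and DESeq2 called 0. In the hypoxic genotype comparison of TSS regions edgeR also called 0 members without the block, 2 (HILPDA and PLIN2) had an unadjusted p under 0.05, and DESeq2 called 1, HILPDA.

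DGAT2 was transcribed at a low and even level. It gave 8.72 and 11.3 gene body CPM in normoxic and 9.99 and 8.09 in hypoxic WT cells, against 10.1 and 10.4 in normoxic and 9.27 and 10.9 in hypoxic HIF1A-/- cells. All 4 groups overlapped, apart from WT hypoxia and HIF1A-/- normoxia. With hypoxia it differed by -0.15 in WT (SE 0.23, adjusted p = 0.908) and by -0.024 in HIF1A-/- cells (SE 0.23, adjusted p = 1.00). Between genotypes it differed by 0.034 in normoxia (SE 0.23, adjusted p = 0.992) and 0.16 in hypoxia (SE 0.23, adjusted p = 0.788). Its TSS gave 14.6 to 26.9 CPM, and its PI, at 90.9 to 160, was above the median over all genes in every library.

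PNPLA2 encodes adipose triglyceride lipase, which takes the first fatty acid off stored triglyceride. It gave 35.8 and 44.5 gene body CPM in normoxic and 49.3 and 43.1 in hypoxic WT cells, against 39.4 and 48.5 in normoxic and 56.0 and 58.0 in hypoxic HIF1A-/- cells. The 2 hypoxic HIF1A-/- libraries were the highest and the other 3 groups overlapped. With hypoxia PNPLA2 differed by 0.20 in WT (SE 0.17, adjusted p = 0.897) and by 0.37 in HIF1A-/- cells (SE 0.17, adjusted p = 1.00). Between genotypes it differed by 0.13 in normoxia (SE 0.17, adjusted p = 0.964) and by 0.30 in hypoxia (SE 0.17, adjusted p = 0.440), and neither fit called it. Its TSS held few reads, 36 to 67 in a library (8.40 to 18.8 CPM), and its PI of 1.82 to 4.91 was at the 3.38 to 7.48 percentile of genes. Of the 7 members tested PNPLA2 thus had the lowest PI in every library.

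Compared per length, as CPM divided by gene body length in kb (RPKM), the members span a wide range. In WT normoxia PNPLA2 was at 7.08 ± 1.09 RPKM (SD, n = 2) and HILPDA at 6.18 ± 1.18 RPKM, and these 2 overlapped. DGAT1 at 4.86 ± 0.041 RPKM and AGPAT2 at 4.26 ± 0.644 RPKM followed, and their means differed by less than the SD of AGPAT2. LPIN1 was at 1.26 ± 0.241 RPKM, PLIN2 at 0.707 ± 0.0859 RPKM and DGAT2 at 0.315 ± 0.0576 RPKM, each below the lowest library of the one before. In WT hypoxia HILPDA was first, at 22.0 ± 8.21 RPKM, and its 2 libraries were at the 98.0 and 99.1 percentile of the gene bodies tested. PLIN2 was at the 33.0 and 37.6 percentile in WT normoxia and at the 45.9 and 56.4 percentile in WT hypoxia.

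**Figure D4:**
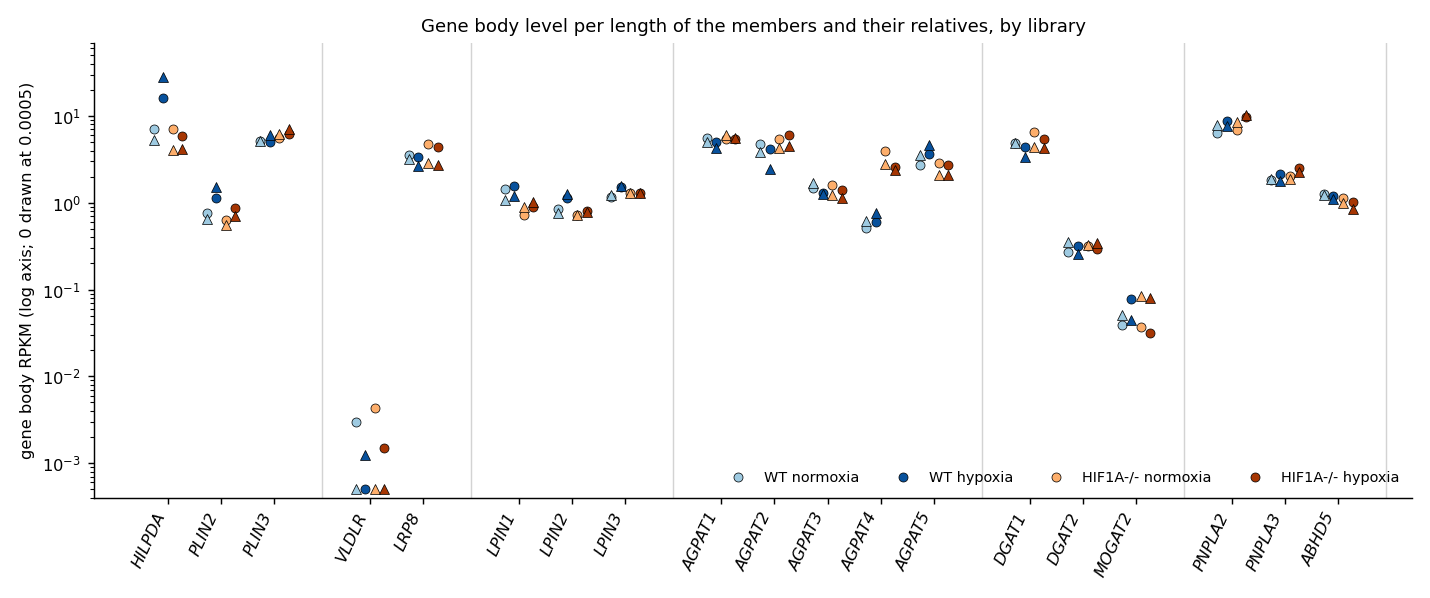
Gene body RPKM on a log axis for the members and their relatives in each library, with circles for replicate 1, triangles for replicate 2 and libraries with 0 reads drawn at 0.0005. VLDLR lies far below LRP8, and AGPAT4 is the gene whose HIF1A-/- libraries stand well above its WT ones.

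Relatives of the members were read beside them, whatever their result. AGPAT4, an acyltransferase of the same family as AGPAT2, gave 73.0 to 108 gene body CPM in WT cells and 343 to 572 in HIF1A-/- cells. It was higher in HIF1A-/- cells by 2.60 in normoxia (SE 0.21, adjusted p = 0.00149) and by 1.87 in hypoxia (SE 0.20, adjusted p = 0.00444). AGPAT1, AGPAT3 and AGPAT5 were not called without the block, and AGPAT5 was lower in hypoxic HIF1A-/- cells with it (log2 fold change -0.78, adjusted p = 0.0352). LPIN2, a second lipin, gave 78.7 and 71.0 CPM in normoxic and 107 and 117 in hypoxic WT cells, against 68.4 and 67.4 in normoxic and 75.5 and 73.3 in hypoxic HIF1A-/- cells. Like HILPDA it was highest in WT hypoxia and lower there in HIF1A-/- cells (log2 fold change -0.59, SE 0.12, adjusted p = 0.0534). Its log2 fold change in WT hypoxia was 0.58 (SE 0.12, adjusted p = 0.233 without and 0.0232 with the block). LPIN3 was not called (WT hypoxia 0.37, SE 0.14, adjusted p = 0.897).

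PLIN3, a coat protein found in most cells, gave 142 to 199 CPM and differed by 0.09 in WT hypoxia (SE 0.14, adjusted p = 0.905). ABHD5, the activator of PNPLA2, gave 26.4 to 39.1 CPM and differed by -0.13 in WT hypoxia (SE 0.15, adjusted p = 0.897). PNPLA3, the closest relative of PNPLA2, gave 41.0 to 57.0 CPM and differed by 0.07 (SE 0.15, adjusted p = 0.930), and MOGAT2, related to DGAT2, gave 0.451 to 1.20 CPM. None of these 4 was called in any gene body comparison without the block. With it, PLIN3 and PNPLA3 were called higher and ABHD5 lower in hypoxic HIF1A-/- cells, with log2 fold changes of 0.27, 0.28 and -0.29.

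Without the block, 4 genes of the wider lists were called. Of 21 genes of droplet coat and assembly 17 were tested, and only HILPDA was called without the block, lower in hypoxic HIF1A-/- cells. Their median log2 fold change was 0.038 in WT hypoxia, against -0.018 over all gene bodies. Of 24 genes of glycerolipid synthesis 23 were tested, with AGPAT4 called higher in HIF1A-/- cells at both oxygen levels and LPIN2 lower in hypoxia. Their median in WT hypoxia was -0.095. Of 12 lipolysis genes 10 were tested and edgeR called 0 in any comparison without the block, where at most 1 had an unadjusted p under 0.05. With the block, CES2 and PNPLA3 were called higher and LIPA and ABHD5 lower of these 10 in hypoxic HIF1A-/- cells, where 13.1% of all gene bodies were called higher and 15.1% lower, and these and the other genes named through the block alone were chosen after their values were seen. Of 27 genes of lipoprotein and fatty acid uptake 21 were tested, and SLC27A2, a fatty acid transporter and acyl-CoA synthetase, was lower in HIF1A-/- cells by 1.15 in normoxia (log2 fold change -1.15, SE 0.22, adjusted p = 0.0582) and by 1.11 in hypoxia (log2 fold change -1.11, SE 0.22, adjusted p = 0.0433). In the response of WT cells to hypoxia edgeR without the block called 0 genes of these 4 lists, and 2 genes of the droplet list and 3 of the synthesis list had an unadjusted p under 0.05. With the block it called 2 higher in each of these lists, HILPDA and PLIN2 in the first and LPIN2 and MOGAT1 in the second. It called SLC27A4 and LRPAP1 lower in the uptake list. In that WT response 3.73% of all gene bodies were called higher and 1.77% lower with the block. In hypoxic HIF1A-/- against WT cells the block gave 2 of 17 droplet genes higher and 2 lower, 2 of 23 synthesis genes higher and 4 lower, and 2 of 21 uptake genes higher and 7 lower. In normoxia it gave 0 of the droplet and lipolysis genes, 2 synthesis genes higher and 3 lower, and 6 uptake genes lower and 0 higher, where 3.93% of all gene bodies were called higher and 6.39% lower.

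**Figure D5:**
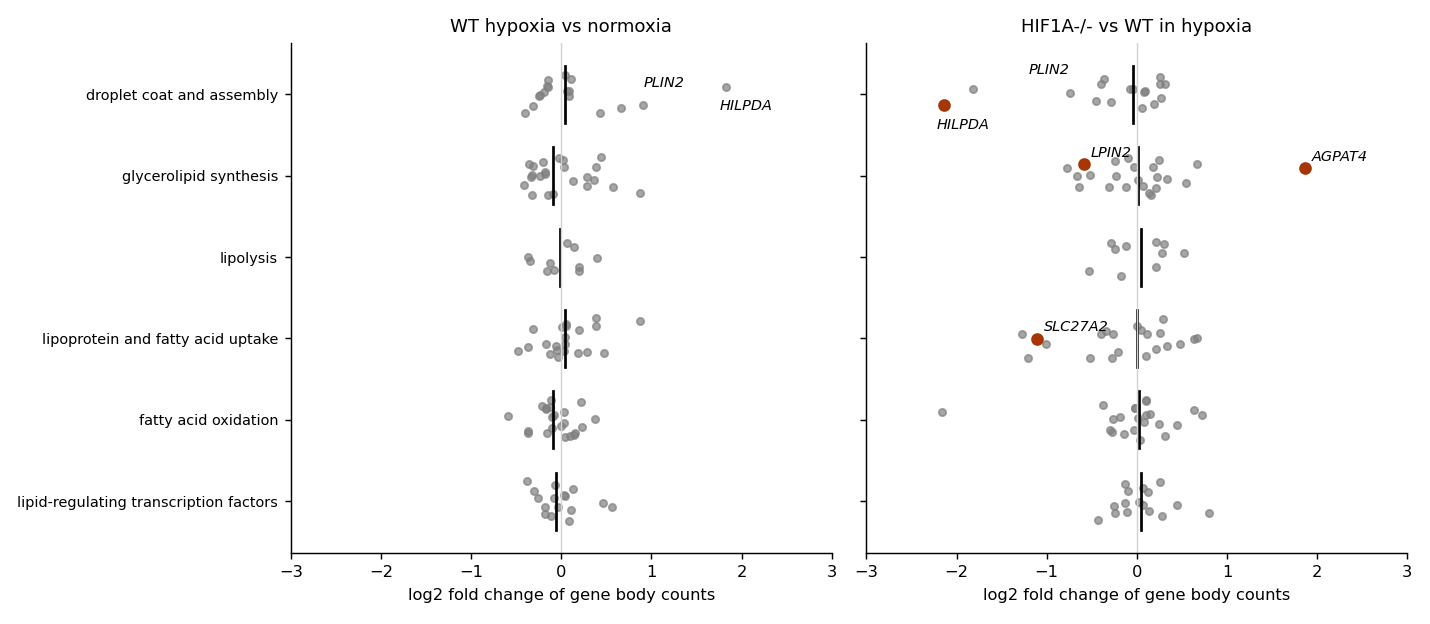
Log2 fold changes of gene body counts for every tested gene of 6 lists of lipid genes, in WT hypoxia (left) and in HIF1A-/- against WT cells under hypoxia (right), with large red points for genes called without the block, small grey points for the rest and black bars for the list medians. HILPDA is at 1.83 and -2.14, and the list medians lie close to 0.

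The pattern of HILPDA over the 8 libraries was most like that of ENO1, PMS2CL and PEX3, with Pearson correlations of log2 gene body CPM of 0.987, 0.987 and 0.984 among 16685 other genes. These are descriptions over libraries that share genotype, oxygen and replicate. ENO1, the glycolytic enzyme enolase 1, differed by 1.28 in WT hypoxia (SE 0.22, adjusted p = 0.101) and by 0.050 in HIF1A-/- cells (SE 0.22, adjusted p = 1.00). PEX3, a factor of peroxisome membrane assembly, differed by 0.90 (SE 0.17, adjusted p = 0.130) and -0.035 (SE 0.17, adjusted p = 1.00). PMS2CL, a pseudogene related to PMS2 whose reads may be shared with its copies, differed by 0.59 (SE 0.20, adjusted p = 0.897) and 0.010 (SE 0.20, adjusted p = 1.00). In hypoxic HIF1A-/- against WT cells edgeR without the block called ENO1 (-1.43, SE 0.23, adjusted p = 0.0201) and PEX3 (-1.03, SE 0.17, adjusted p = 0.0223) lower. PMS2CL was not called there (-0.66, SE 0.20, adjusted p = 0.161). Among the members HILPDA was most like PLIN2, at 0.920 over the 8 libraries, and AGPAT2 most like DGAT1, at 0.863. The closest matches among all genes reached 0.987 for HILPDA and 0.996 for AGPAT2. Where the values between members rank among all genes was not counted.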

How the data were processed

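The authors sequenced strand-specific PRO-seq libraries in 2 runs each, merged them, aligned reads with HISAT2 (2.1.0) to GRCh37/hg19 and kept mapping qualities over 10. They deposited 2 tables of raw read counts from featureCounts (Subread 1.6.2), for TSS regions (from 50 bp before to 500 bp after the start) and gene bodies (from about 1 kb after the start to the end) in RefSeq, pairing the most active TSS of each gene with its shortest gene body, with transcripts under 1500 bp removed. No normalization was applied to these counts.

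Counts were tested with edgeR 4.0.16 (R 4.3.3; quasi-likelihood, TMM), as 4 group means over all 8 libraries, for genes above 0.5 CPM in at least 2 libraries. Benjamini-Hochberg adjustment ran over all genes, with calls at 10%. The pausing index was fitted over both tables with a term for each library. CPM and RPKM use TMM-scaled totals. The fits were run on simulated counts with a large change in well-counted genes, a fixed spread and no replicate effect. That does not show how they perform for the smaller differences and paired replicates here. With 2 libraries a group, precision is set by the spread between replicates and, for low genes, by counts.

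Groups and replicate numbers came from the sample titles. Deviations of same-numbered libraries from their group means correlated at 0.484 to 0.790 in gene bodies and 0.216 to 0.519 at TSS regions. This held over all 6 pairs of groups, which are not independent, so the numbers were taken to pair the samples. The titles give only the replicate number, and the pairing was read from the same counts that the block was fitted to. Log2 CPM of replicates correlated at 0.982 to 0.989. Alternatives were a replicate block, DESeq2 1.42.0, other scalings and filters, only the 4 libraries compared, and leaving out each library.

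The members and gene lists were chosen with earlier results of these data known. All members are named, as are the relatives of their families (1 is not reported here), list genes called in a gene body comparison without the block, some called only with it, and the 3 genes most like a called member over the libraries. Sequences are from RefSeq promoters (GRCh38.p14), matched by symbol.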

Additional observations from a re-analysis of the deposited data

How the results depend on the processing

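With 2 libraries a group the replicate block decides most calls. In gene bodies, the number of members called in WT hypoxia went from 0 to 2 with the replicate block, 1 with DESeq2, 2 with DESeq2 and the block, 1 with no filter and 0 to 1 without 1 library. For the difference between responses it went from 0 to 1 with DESeq2 with or without the block, and for the genotypes in normoxia from 0 to 1 with the block in edgeR or DESeq2. For the genotypes in hypoxia it went from 1 to 4 with the block in edgeR or DESeq2 and to 0 to 1 without 1 library. At TSS regions it went in WT hypoxia from 0 to 2 with the block, 1 with DESeq2 and the block and 1 with no filter, and for the genotypes in hypoxia from 0 to 2 with the block, 1 with DESeq2, 2 with both, 1 with no filter, 1 with only the 4 libraries compared and 0 to 1 without 1 library. For the pausing index it went from 0 to 1 in WT hypoxia with the block, and to 0 to 1 without 1 library there and in the difference between responses. The cause was not tested.

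Leaving out 1 library turned the sign of some differences, none of which was called with all 8 libraries. In WT hypoxia gene bodies the log2 fold change ranged from -0.32 to 0.052 for DGAT2 and -0.073 to 0.34 for LPIN1. In HIF1A-/- hypoxia it ranged from -0.086 to 0.33 for AGPAT2, -0.39 to 0.13 for DGAT1, -0.15 to 0.11 for DGAT2 (0.019 with library totals only) and -0.48 to 0.29 for HILPDA. Between the genotypes in normoxia it ranged from -0.098 to 0.43 for DGAT1, -0.14 to 0.25 for DGAT2, -0.57 to 0.19 for HILPDA and -0.018 to 0.31 for PNPLA2. The pausing index in HIF1A-/- hypoxia ranged from -0.21 to 0.83 for HILPDA, -0.30 to 0.059 for PLIN2 and -0.93 to 0.53 for PNPLA2. In WT hypoxia that of DGAT1 ranged from -0.95 to 0.28. The TSS of PNPLA2 ranged from -0.38 to 0.75 in HIF1A-/- hypoxia, so not all of these differences were small. Of all 728 member values with 1 library left out, 644 kept direction and call, 7 became called, 2 lost their call and 75 changed sign. Of 588 under the other alternatives 558 kept both, 28 became called and 2 changed sign.

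Over all gene bodies, DESeq2 with the block called 672 higher and 356 lower in WT hypoxia and 122 higher for the difference between responses. Between the genotypes it called 674 higher and 895 lower in normoxia, and 1836 and 2031 in hypoxia. EdgeR with no filter called 95 higher and 0 lower in WT hypoxia. There edgeR without the block, DESeq2 and edgeR with the block called 72, 174 and 623 higher and 0, 1 and 296 lower. In HIF1A-/- hypoxia they called 0, 2 and 5 higher and 0, 6 and 1 lower, and for the difference between responses 9, 68 and 64 higher. Between the genotypes they called 121, 299 and 656 higher and 176, 331 and 1066 lower in normoxia. In hypoxia they called 245, 521 and 2186 higher and 466, 790 and 2520 lower. Of TSS regions in WT hypoxia edgeR called 7 higher and 0 lower without the block, 120 and 33 with it. With no filter it called 49 and 14, and DESeq2 with the block 55 and 9. For the genotypes in hypoxia edgeR called 67 and 101 TSS regions without the block, 1136 and 1060 with it. It called 587 and 476 with no filter and 465 and 388 with only the 4 libraries compared. DESeq2 called 160 and 152 without the block and 557 and 526 with it.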

Other observations

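Genes that burn fatty acids or regulate lipid genes were read beside the members. Of 24 genes of fatty acid oxidation 22 were tested, and edgeR without the block called 0 of them in any comparison, although 1 had an unadjusted p under 0.05 in WT hypoxia, lower, and 2 were higher and 2 lower at that level between the genotypes in hypoxia. Their median log2 fold change was -0.091 in WT hypoxia, against -0.018 over all gene bodies. With the block, 4 of the 22 were called higher (CPT1A, SLC25A20, ECHS1 and ACADVL) and 2 lower (ACOX2 and HADH) in hypoxic HIF1A-/- cells, where calls over all gene bodies were 13.1% higher and 15.1% lower. In normoxic HIF1A-/- cells ACADVL was called higher and ACOX2 and HADH lower with the block, where the shares over all gene bodies were 3.93% and 6.39%.

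All 16 lipid-regulating transcription factors were tested, and edgeR without the block called 0 in any comparison, with 1 at an unadjusted p under 0.05 in WT hypoxia. With the block, 2 of the 16 were called higher (MLXIPL and CEBPA) and 1 lower (PPARG) in hypoxic HIF1A-/- cells, which is no more than the share of all gene bodies called in each direction there, and PPARG was also lower in normoxic ones. Their median log2 fold change was -0.056 in WT hypoxia and 0.046 between the genotypes in hypoxia.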
